A study of Mus musculus with 2 samples.

Results

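The genes described here encode the proteins of the cytosolic ribosome. They were taken from the deposited count matrix by symbol, as every gene named Rpl, Rps, Rplp or Rpsa, and numbered 85 of the 17492 genes in the matrix. Of these, 52 belong to the large subunit and 33 to the small subunit. Another 13 genes with such symbols were left out, namely 3 pseudogenes (symbols ending in -ps and a number), 9 ribosomal S6 kinases, which phosphorylate a ribosomal protein and are not part of the ribosome, and Rps19bp1, which encodes a binding partner of RPS19.

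Single-cell RNA sequencing of the corneal epithelium was carried out on 2 libraries, 1 per group, so no difference between the groups has a replicate check and none is given a p-value. The control library came from male C57BL/6J mice aged 20 weeks that had received sodium citrate buffer. The diabetic library came from mice of the same strain, sex and age that had received 1 injection of streptozotocin at 160 mg/kg, which destroys the insulin-producing beta cells, and whose blood glucose, measured each week of the 12-week experiment, remained over 250 mg/dL. Each library pooled 4 corneas from 2 mice, so variation between mice cannot be seen. The authors' labels put the 9605 control and 8203 diabetic cells into 7 epithelial groups, LSC, Basal, TAC1, TAC2, Wing, Squam and Conj, and a small Immune group; the labels do not spell out these abbreviations.

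The labels were set beside marker genes. Krt12, the keratin of corneal epithelium, stood at 21398 CPM (counts scaled to 1000000 per sum) in all control cells and 21165 CPM in all diabetic cells. Gpha2 led in LSC (2875 CPM in the control library), Mki67, a proliferation marker, in TAC2 (325 CPM), Psca in Squam (28930 CPM) and Krt13 in Conj (6957 CPM). Krt15, listed here as a basal keratin, went against the Basal label, at 189 CPM there and 5870 CPM in Wing of the control library. Col17a1, a hemidesmosome protein of basal cells, was at 1281 and 319 CPM, but at 1440 CPM in TAC1. Krt14 was at 504 CPM in control Basal, 788 CPM in TAC2 and 3016 CPM in LSC. The 4 TAC1 markers did not set TAC1 apart, with sums of 451 CPM in control TAC1 and 521 CPM in control TAC2. Of these, Pcna and Mcm5 were higher in TAC1, and Rrm2 and Tyms in TAC2. Markers of stroma, endothelium, Schwann cells, melanocytes and red blood cells summed to between 0.224 and 5.23 CPM per list over all cells of a library, and 18 barcodes occurred in both libraries.

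Each ribosome is built from a small subunit, which reads the mRNA, and a large subunit, which joins the amino acids, and nearly all of their proteins occur in equal copy number, around ribosomal RNA. The mRNAs of these proteins begin with a run of pyrimidines, the 5′ terminal oligopyrimidine (TOP) tract, through which growth signals acting by mTOR adjust their translation and stability together. Corneal epithelium renews itself from limbal stem cells through dividing basal cells to the wing and superficial squamous cells, which are shed from the surface. Cells of the outer layers no longer divide.

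The sequence around the annotated transcript start shows what these genes have in common before any count is read. RefSeq promoters (build GRCm38.p6) matched 65 of the 85 members, with 77 starts. Windows of 30 bases are printed below for members that stand out in the counts, from 15 bases before the annotated start to the 15 bases that begin the transcript; capitals mark the longest run of C and T. Rpl13 and Rps24 were the members with the highest counts. Rpl12, Rpl13a, Rps25, Rps15 and Rpl5 had the largest diabetic over control ratios, Rpl22l1, Rps27l and Rpl36al were among those with the lowest, and Rplp0 was among the members least lower in Squam. Where a gene had more than 1 start, the first is shown.
Rpl13, chr8:123102335-123102364, plus strand: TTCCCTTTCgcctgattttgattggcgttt
Rps24, chr14:24490663-24490692, plus strand: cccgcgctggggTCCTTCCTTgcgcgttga
Rplp0, chr5:115559452-115559481, plus strand: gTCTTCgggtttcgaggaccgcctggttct
Rpl12, chr2:32961697-32961726, plus strand: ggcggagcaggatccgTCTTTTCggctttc
Rpl13a, chr7:45128731-45128760, minus strand: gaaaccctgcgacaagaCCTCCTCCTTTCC
Rps25, chr9:44407699-44407728, plus strand: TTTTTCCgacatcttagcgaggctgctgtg
Rps15, chr10:80292416-80292445, plus strand: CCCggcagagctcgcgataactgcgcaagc
Rpl5, chr5:107900513-107900542, plus strand: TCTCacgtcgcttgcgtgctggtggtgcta
Rpl22l1, chr3:28805493-28805522, plus strand: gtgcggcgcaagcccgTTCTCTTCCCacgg
Rps27l, chr9:66946071-66946100, plus strand: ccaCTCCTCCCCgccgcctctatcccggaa
Rpl36al, chr12:69184053-69184082, minus strand: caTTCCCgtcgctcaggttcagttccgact

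A run of at least 8 pyrimidines lay in 36.4% of the 77 member windows and in 12.0% of the 32851 windows of all RefSeq promoters. The median longest run was 6 bases in the members and 4 bases in all promoters. Long runs occurred among members with the largest and the lowest ratios alike, 13 bases in Rpl13a and 10 bases in Rpl22l1, and short ones of 3 bases in Rps15 and 4 bases in Rpl5. An annotated start can lie some bases from the start used in these cells, so a run away from the start, as in Rps27l, is a match in the window and not a mapped TOP tract.

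Motifs were searched on both strands of the 300-base promoters. CCGGAAG, the core bound by ETS factors, was in 35.1% of the members' promoters and 8.86% of all promoters. AAGATGGCG, the core of the YY1 site, was in 7.79% and 1.40%. TATAA was in 23.4% and 24.9%. These are matches of letters and not measured binding.

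Counts of unique molecular identifiers (UMIs) from 3′ tags count molecules, so levels of different genes were compared without scaling for length. The 85 genes made up 20.9% of all UMIs in the control library (41133412 of 196359192) and 23.1% in the diabetic library (39430013 of 171030636). They supplied 58 and 60 of the 100 genes with the most UMIs. Intervals in this text are exact 95% intervals that cover counting error alone; at this depth they were narrow, 20.94 to 20.95% and 23.05 to 23.06% for these shares.

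The members differed widely in level although the ribosome holds nearly all of their products in equal number. Over all control cells the median member stood at 2447 CPM; 69 members were above 1000 CPM, 12 between 100 and 1000 CPM and 4 below 100 CPM. The highest were Rpl13, a large-subunit protein, at 7159 CPM in the control and 7412 CPM in the diabetic library, and Rps24, a small-subunit protein, at 5648 and 5691 CPM. Rpl41, which encodes the smallest ribosomal protein, stood at 5260 and 5545 CPM, Rplp0, the base of the stalk that recruits elongation factors, at 5076 and 5136 CPM, and Rps20 at 5042 and 5306 CPM. Among the 81 members of at least 100 CPM in control cells, the 90th percentile was 5.16 times the 10th in the control and 4.45 times in the diabetic library. Rpl13 was the highest member in LSC, Basal, TAC1, TAC2 and Wing of both libraries, whereas Rplp0 was the highest in Squam and Rpl41 in Conj.

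The lowest members were paralogs of other members. Rpl10l, a retrogene copy known from testis, had 0 counts in the control and 3 in the diabetic library, and Rpl3l, the form of striated muscle, had 3 and 0 counts; neither was detectable above these few counts. Rpl39l, another form known from testis, stood at 0.881 and 0.801 CPM beside 5027 and 5322 CPM of Rpl39. Rpl7l1 stood at 57.0 and 55.5 CPM, 2.80% and 2.52% of Rpl7. Rps27rt, a retrogene of Rps27, stood at 110 and 111 CPM, but 85.3% of the 31-base words in the last 200 bases of its transcript also occur in other genes and all of those of Rps27 do, so counts of this pair may be split. The paralogs Rps4l and Rpl37rt are not analysed here.

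**Figure D1:**
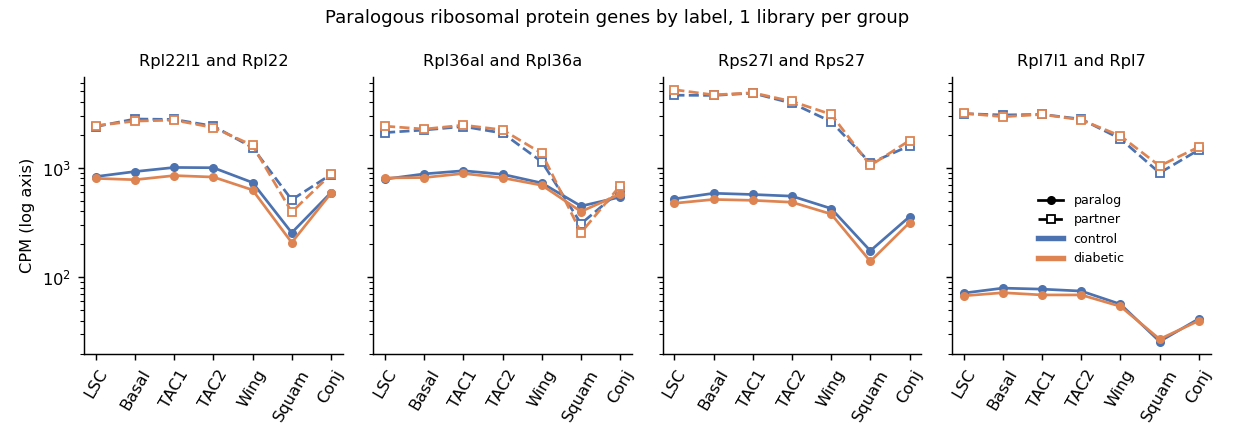
CPM on a log axis of 4 paralogs (filled circles, solid lines) and their partners (open squares, dashed lines) in the 7 epithelial labels, control in blue and diabetic in orange, 1 library each. Rpl36al lies below Rpl36a in every label except Squam of both libraries, where it lies above.

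Other paralogs were abundant, and the balance within a pair changed with the label. Rpl22l1, the paralog of Rpl22, was at 41.9% of the Rpl22 count in all control cells (interval 41.6 to 42.1%) and at 35.4% in all diabetic cells (35.1 to 35.6%). It was lowest relative to Rpl22 in Basal, at 33.1% and 29.1%, and highest in Conj, at 68.2% and 67.1%. Squam was the exception to the lower diabetic value, with 49.9% in the control and 52.6% in the diabetic library.

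Rpl36al stood at 39.7% of Rpl36a in Basal of the control and 36.1% in the diabetic library. In Wing the values were 64.0% and 51.1%, and in Squam the order of the pair was turned, at 145% and 156%. The level of Rpl36al in Squam was 447 and 398 CPM. All 31-base words in the last 200 bases of Rpl36a occur in another gene, so the level of Rpl36a is less certain than that of its paralog.

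Rps27l, a small-subunit paralog that p53 is known to induce, stood at 14.4% of Rps27 in all control cells (14.3 to 14.5%) and 11.7% in all diabetic cells (11.6 to 11.8%). The value was lower in the diabetic library in each of the 7 labels, from 22.5% against 17.7% in Conj to 11.3% against 9.16% in LSC.

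The ribosomal protein share of UMIs was highest in the labels LSC, Basal, TAC1 and TAC2 and lowest in Squam. In the control and diabetic libraries it was 29.2% and 32.1% in LSC, 31.8% and 32.0% in Basal, 33.3% and 33.8% in TAC1, and 29.4% and 30.1% in TAC2. Wing cells were lower, at 19.5% and 21.6%. Conj stood at 12.8% and 13.6% and Squam at 7.50% and 6.66%. The small Immune group, with 26 and 10 cells, stood at 29.0% and 28.5%.

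**Figure D2:**
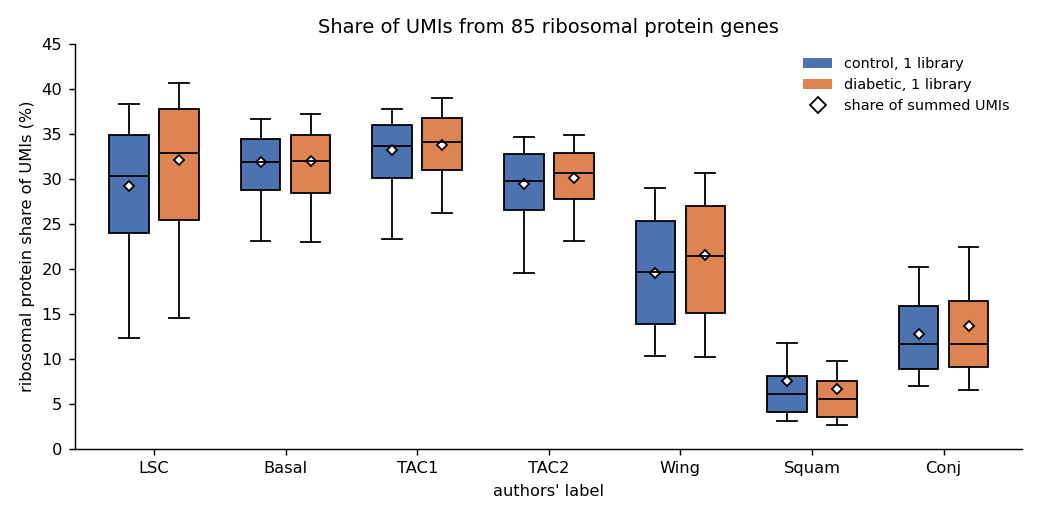
Percent of a cell's UMIs from the 85 genes in each epithelial label, control in blue and diabetic in orange, 1 library each. Boxes span the 25th to 75th percentile of cells with the median as a line, whiskers the 10th to 90th percentile, and diamonds are the share of the summed UMIs. Squam cells lie lowest, with medians of 6.11% and 5.48%.

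The share and the mean amount per cell did not follow the same order. The mean of ribosomal protein UMIs per cell was 4016 and 4531 in Basal and 5308 and 5797 in Wing. The Wing mean was thus higher although the share was lower. Depth was skewed in Wing, with a mean of 27164 and a median of 19900 UMIs of all genes per control cell. In control Basal the mean was 12617 and the median 13146, so the order of the means need not hold for a typical cell. TAC2 had the highest mean, at 5772 and 7542 per cell, and its depth was also skewed in the control library (mean 19607, median 16629 UMIs). Squam had the lowest mean of the 7 labels, at 1844 and 1512, with means of 24581 and 22705 UMIs of all genes per cell. The share also moved with depth within a label: among the 835 control Basal cells with the fewest UMIs the median share was 27.8%, against 32.9% in the 835 with the most, while in Squam it was 4.79% in the 529 shallowest and 7.55% in the 529 deepest cells. The direction differed between labels. From the shallowest to the deepest cells the median share went from 20.2% to 18.8% in control Wing and from 22.7% to 21.5% in diabetic Wing. In Conj it went from 13.5% to 11.5% in the control but from 12.5% to 12.7% in the diabetic library. Cells of middle depth did not always lie between, at 20.6% in diabetic Wing and 10.8% in diabetic Conj.

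The large subunit members supplied 1.33 times as many UMIs as the small subunit members in Basal of the control library and 1.34 times in the diabetic library. The ratio was between 1.27 and 1.37 in LSC, Basal, TAC1, TAC2 and Wing of both libraries. It was higher in Conj, at 1.43 and 1.39, and in Squam, at 1.49 and 1.52.

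Differences between labels were described gene by gene, as the log2 ratio of the CPM in a label over that in Basal of the same library. A gene counted as higher or lower when its ratio was at least 1.2-fold, the Poisson intervals of the 2 CPM values lay apart and the 2 sums held at least 50 counts together. The labels were made by the authors from the same cells and may have used these genes, so these values are a description. Members have many counts, so their intervals lie apart more readily than those of most genes, and the shares of all genes given beside them are read with that limit.

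LSC, TAC1 and TAC2 lay close to Basal. The median log2 of the members was -0.10 in the control and 0.02 in the diabetic library for LSC, 0.06 and 0.08 for TAC1, and -0.13 and -0.09 for TAC2. In Wing the medians were -0.74 and -0.59, beside -0.18 and -0.16 over all genes measured. Of 83 measured members, 82 were lower in Wing in the control library, where 40.3% of all genes were, and 79 in the diabetic library, where 37.7% of all genes were. Rpl23a, Rpl36al and Rpl39l were among those not past the rule in the diabetic library.

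Squam was lowest. The median log2 over Basal was -2.12 in the control library, a 4.36-fold lower level, and -2.30 in the diabetic library, a 4.91-fold lower level. Over all genes measured the medians were -0.98 and -1.10. All 82 measured members were lower in both libraries, beside 66.6% and 68.1% of all genes. In Conj the medians were -1.33 and -1.24, beside -0.47 and -0.47 over all genes, and all 82 measured members were lower, beside 50.8% and 51.4% of all genes. With a scaling by the median gene, the Squam medians over Basal were -1.08 and -1.16, so a large part of the log2 difference in CPM was shared with the median gene.

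**Figure D3:**
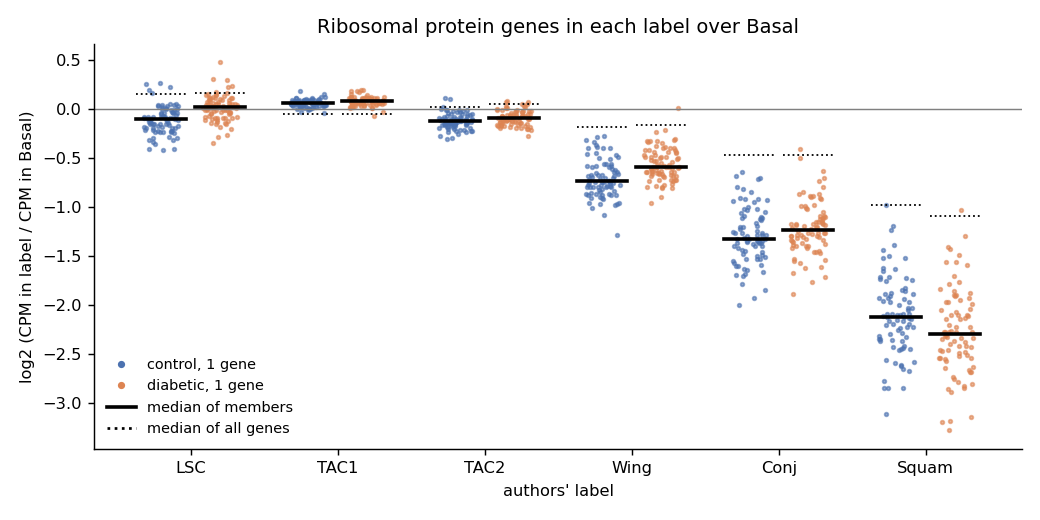
Log2 of the CPM in each label over the CPM in Basal, 1 point per measured member, control in blue and diabetic in orange; Rpl39l, which has few counts, is not drawn. Solid bars are medians of the measured members and dotted bars those of all genes measured; the medians of the members lie below those of all genes in Wing, Conj and Squam.

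The members differed in how far they lay below Basal in Squam. The lowest against Basal was Rpl12, part of the stalk base of the large subunit, at 2841 CPM in Basal and 327 CPM in Squam of the control library, 8.69-fold lower (8.53 to 8.85), and at 3459 and 355 CPM in the diabetic library, 9.74-fold lower (9.55 to 9.94). Rps19, the small-subunit protein mutated in Diamond-Blackfan anaemia, went from 4103 to 567 CPM in the control library, 7.24-fold lower, and from 3966 to 436 CPM in the diabetic library, 9.10-fold lower. Rpl3, which lies near the peptidyl transferase centre, was 7.20-fold and 9.19-fold lower. At the other end, Rpl36al was 1.97-fold and 2.05-fold lower. Rpl23a, at the exit of the peptide tunnel, was 2.28-fold and 2.47-fold lower, and Rplp0 was 2.36-fold lower in the control (6497 to 2758 CPM) and 2.69-fold lower in the diabetic library (6417 to 2383 CPM). Rpl12 and Rplp0 encode neighbours in the stalk and stood at the opposite ends of the order.

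The comparison of the diabetic with the control library addresses what chronic hyperglycaemia of this model goes with in the corneal epithelium. Over all cells the median member was higher in the diabetic library by 0.12 on the log2 scale, and the median of all genes measured was higher by 0.07. Of 83 measured members, 16 were at least 1.2-fold higher, where 16.8% of all genes were, and 0 were lower, where 8.18% of all genes were. No member was at least 1.5-fold higher, where 5.98% of all genes were. They included Rpl5, Rpl10, Rpl12, Rpl13a, Rpl17, Rpl23a, Rpl31, Rpl38, Rplp1, Rplp2, Rps6, Rps12, Rps15 and Rps25. The share of members past the rule was thus near that of all genes. The makeup of the libraries differed, with 2902 Wing cells of 9605 in the control and 1974 of 8203 in the diabetic library. With the same label weights in both libraries the median was 0.03, so most of the difference of the median over all cells was not seen at equal makeup. There 9 members were at least 1.2-fold higher, counted without the condition on intervals.

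Within the labels the direction depended on the layer. In Basal the median member was at -0.01, beside 0.01 for all genes. Only Rpl12 and Rpl13a were higher, 2 of 83, beside 8.39% of all genes, and 0 were lower, beside 7.56%. In TAC1 the median was 0.00, with 5 of 83 higher (5.63% of all genes) and 0 lower (5.38%). In TAC2 it was 0.01, with 9 of 83 higher (7.39% of all genes) and 1, Rpl22l1, lower (4.39%); without the likely doublets 4 were higher. The diabetic TAC1 and TAC2 cells held more UMIs on average, with means 1.22 and 1.28 times those of control cells. Their mean ribosomal protein UMIs per cell were thus 1.24 and 1.31 times those of the control at a nearly equal share.

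In LSC the median was 0.13, beside 0.01 for all genes. There 12 of 82 measured members were higher, beside 4.28% of all genes, and 0 were lower, beside 5.14%. The LSC group was small, with 202 control and 331 diabetic cells. The 3 LSC markers summed to 7131 CPM in the control and 5890 CPM in the diabetic library, and the 4 TAC2 markers to 25.7 and 79.7 CPM. The mean of UMIs per cell was 1.29 times that of the control. The 3 measured endothelium markers summed to 1.84 and 58.2 CPM, with Car3 at 0 and 40.8 CPM and Slc4a11 at 1.84 and 17.2 CPM, and the 1 measured stroma marker stood at 13.3 and 23.7 CPM; their part in the result was not tested.

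In Wing the median was 0.13, beside 0.04 for all genes, and 17 of 83 members were higher, beside 13.4% of all genes, with 0 lower, beside 8.47%. Rpl12 was the member that reached 1.5-fold, a size that 3.93% of all genes reached in Wing. The 4 Basal markers summed to 6238 CPM in Wing of the control and 7190 CPM of the diabetic library. Most of each sum was Krt15, at 5870 and 6701 CPM, which went against the Basal label. Col17a1 stood at 319 and 419 CPM, Krt14 at 34.4 and 52.3 CPM and Itgb4 at 13.6 and 18.5 CPM. The 4 Squam markers summed to 2410 and 2767 CPM. The part of these markers in the result was not tested.

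Squam went the other way. The median member was at -0.17, beside -0.08 for all genes; 19 of 82 measured members were lower, beside 17.3% of all genes, and 0 were higher, beside 6.49%. Rpl7 was the highest, at 898 and 1040 CPM, 1.16-fold higher (1.14 to 1.18). Psca, a surface protein of the Squam label, took up 28930 CPM in the control and 40529 CPM in the diabetic library there. The mean of UMIs per cell was 0.924 times that of the control. The part of Psca and of depth in the result was not tested. With a scaling by the median gene the Squam median was -0.08, with 4 members lower and 2 higher. Without the likely doublets 10 members were lower. With equal weight for every cell 6 were lower, counted without the condition on intervals.

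In Conj, with 465 and 440 cells, the median was 0.09, beside 0.02 for all genes. There 5 of 82 members were higher, beside 7.65% of all genes, and 0 were lower, beside 6.31%. The 3 measured Conj markers summed to 14032 CPM in the control and 18727 CPM in the diabetic library, and the Squam markers to 2515 and 4036 CPM; their part in the result was not tested.

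**Figure D4:**
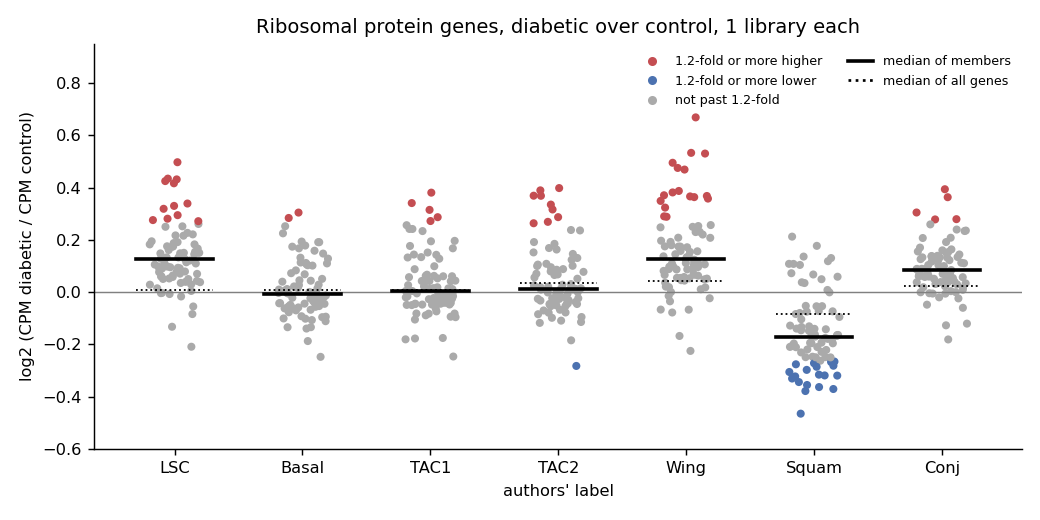
Log2 of the diabetic over the control CPM, 1 point per measured member in each label, 1 library per group; Rpl39l, which has few counts, is not drawn. Red and blue points are members past the 1.2-fold rule, solid bars the medians of the measured members and dotted bars those of all genes measured; blue points are in Squam and 1 in TAC2.

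Members were also followed by sign across the labels. Of the 82 members measured in all 7 labels, 13 were higher in the diabetic library in each, by any size, where 10.2% of all such genes were, and 4 were lower in each, where 11.5% were. The 13 included Rpl5, Rpl10, Rpl12, Rpl13a, Rpl17, Rpl23a, Rpl24, Rps6, Rps12, Rps14, Rps15 and Rps25, and the 4 were Rpl11, Rpl22l1, Rpl37 and Rps27l. Of the 13, 12 stayed on the higher side in every label under each alternative run within labels; Rps12 in Squam lay between -0.03 and 0.10 on the log2 scale. Of the 4, only Rps27l stayed on the lower side throughout. Rpl22l1 turned in LSC, Rpl11 in LSC and Wing, and Rpl37 in LSC, Wing and Conj, each without the members' counts in the denominator, and Rpl11 in LSC also with median-of-ratios scaling and without likely doublets. Another 24 were higher in 6 labels and lower only in Squam. All labels come from the same 2 libraries, so agreement between labels is no replicate, and these lists were drawn up after the values were seen.

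Rpl12 led. Its CPM in the control and diabetic libraries was 2307 and 3256 in LSC, 2841 and 3459 in Basal, 2894 and 3666 in TAC1, 2376 and 3068 in TAC2, 1166 and 1855 in Wing, 327 and 355 in Squam, and 710 and 933 in Conj. The diabetic value was the higher in every label, from 1.09-fold in Squam (1.06 to 1.11) to 1.59-fold in Wing (1.58 to 1.60).

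Rpl13a, known outside the ribosome from the GAIT complex that silences inflammatory transcripts, stood at 894 CPM in all control and 1244 CPM in all diabetic cells, 1.39-fold higher (1.38 to 1.40). It was 1.24-fold higher in Basal, 1.44-fold in Wing and 1.10-fold in Squam. Rps25, which some viral and cellular internal ribosome entry sites need, stood at 1150 and 1516 CPM, 1.32-fold higher, and was 1.14-fold higher in Basal, 1.45-fold in Wing and 1.08-fold in Squam. Rps15 stood at 868 and 1141 CPM, 1.31-fold higher. These 3 genes thus shared the pattern of Rpl12, least in Squam and most in Wing.

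Rpl5, which with Rpl11 and 5S RNA forms the particle that inhibits the p53 regulator MDM2, was at 545 CPM in all control and 704 CPM in all diabetic cells, 1.29-fold higher (1.28 to 1.30). Rpl11, its partner, was at 2841 and 2901 CPM over all cells and on the lower side in each label, except under the alternatives named above. Rps6, the substrate of the S6 kinases, was at 974 and 1219 CPM, 1.25-fold higher. Both stalk proteins beside Rplp0 were past the rule over all cells, Rplp1 1.28-fold and Rplp2 1.22-fold, whereas Rplp0 itself was 1.01-fold higher and its side turned with the alternative, between -0.06 and 0.06 on the log2 scale.

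**Figure D5:**
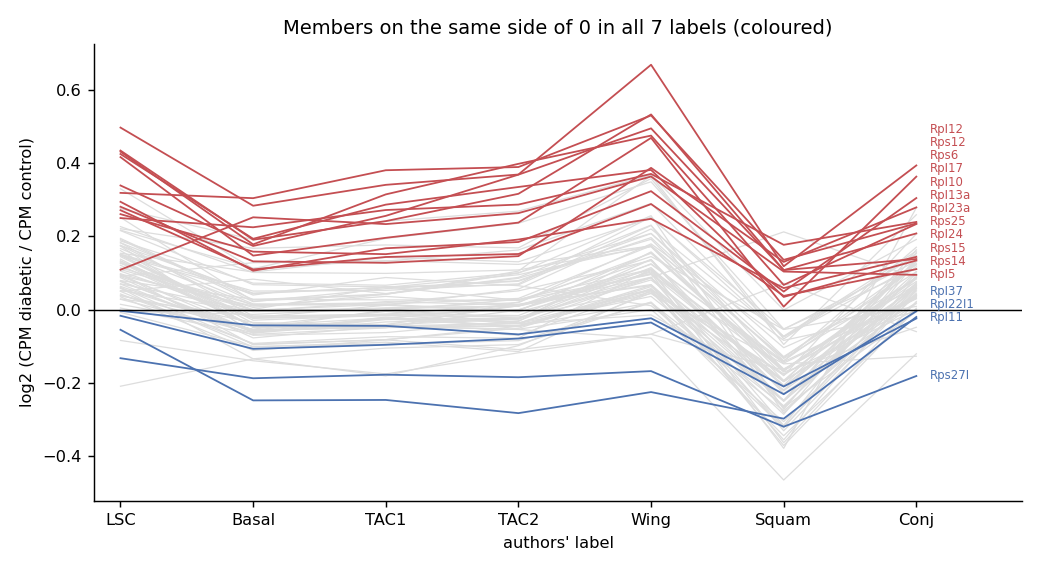
Log2 of the diabetic over the control CPM of each measured member except Rpl39l across the 7 labels, 1 library per group. Red lines are the 13 members higher in all 7 labels, blue lines the 4 lower in all 7, and grey lines the others, with names beside some of the coloured lines; most lines dip in Squam.

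The members at the low end were paralogs. Rpl22l1 was at 709 CPM in all control and 630 CPM in all diabetic cells, 1.12-fold lower (1.12 to 1.13), with 924 and 778 CPM in Basal, 1002 and 824 CPM in TAC2 and 255 and 207 CPM in Squam. The intervals of its ratio included 1 in LSC, from 0.91 to 1.02, and in Conj, from 0.953 to 1.02. Rps27l was at 422 and 387 CPM over all cells, 1.09-fold lower (1.08 to 1.10), and between 1.10-fold lower in LSC and 1.25-fold lower in Squam. Rpl36al and Rpl7l1 were 1.03-fold lower over all cells, and Rpl7l1 lay between -0.11 and 0.00 on the log2 scale over the alternatives. Rpl39l rested on 173 and 137 counts.

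A protein of the cytosolic ribosome can also be made as a fusion, under another symbol. Fau, which encodes RPS30 fused to a ubiquitin-like protein, was at 3709 and 3799 CPM, 1.02-fold higher. Rack1, a scaffold bound to the small subunit, was at 970 and 1195 CPM, 1.23-fold higher.

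Other genes with TOP mRNAs, a list of 16, had a median of 0.15 over all cells, beside 0.07 for all genes. Of the 16, 3 were past the rule higher, where 16.8% of all genes were, and 0 lower, where 8.18% were. The share past the rule higher was thus near that of all genes. The 3 included Tpt1, a TOP mRNA that encodes the translationally controlled tumour protein, 1.29-fold higher, and the elongation factor Eef2, 1.22-fold higher. The median was -0.03 in Basal and -0.10 in Squam, where 4 of 16 were lower, beside 17.3% of all genes. In Squam over Basal the list lay at -1.72 in the control and -1.90 in the diabetic library.

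Genes of ribosome biogenesis, which process ribosomal RNA and assemble the subunits, were lower more often than the ribosomal proteins in Basal and TAC1 of the diabetic library; that difference was not tested. Of 40 on the list, 22 were lower in Basal of the diabetic library, where 7.56% of all genes were, and 0 higher, with a median of -0.27, and 11 were lower in TAC1, where 5.38% of all genes were, with a median of -0.23. In TAC2 1 of 40 was lower, beside 4.39% of all genes, with a median of -0.07. In Squam 10 of 39 measured were lower, beside 17.3% of all genes, with a median of -0.36. In LSC the median was 0.24, with 6 of 39 measured higher, beside 4.28% of all genes, and 0 lower, and over all cells it was -0.01. Nhp2, a protein of the H/ACA particles, was at 102 CPM in all control and 81.3 CPM in all diabetic cells, 1.26-fold lower. Ncl, which encodes nucleolin, was at 234 and 286 CPM, 1.22-fold higher. Within labels the diabetic over control ratio of Ncl ranged from 0.92 in Squam to 1.31 in LSC, with 0.99 in TAC1, 1.03 in Basal and 1.26 in Wing. In Squam over Basal the list lay at -2.86 and -2.82, lower than the ribosomal proteins.

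Mitochondrial ribosomal proteins, a list of 78, had a median of -0.06 over all cells, with 1 higher and 2 lower. Over all cells 16.8% of all genes were past the rule higher and 8.18% lower, and the lists in this paragraph stand beside those shares. In Squam 34 of 78 were lower, where 17.3% of all genes were, with a median of -0.28. In Conj 17 of 78 were lower, where 6.31% of all genes were, with a median of -0.18. In TAC1 9 of 78 were lower, where 5.38% of all genes were, with a median of -0.11. In Basal 7 of 78 were lower, where 7.56% of all genes were, with a median of -0.14. In LSC 0 of 78 were lower, where 5.14% of all genes were, with a median of 0.04. Mrps21 was 1.34-fold lower (201 to 151 CPM) and Mrps6 1.44-fold higher (14.5 to 20.8 CPM) over all cells. The 31 initiation factors had a median of 0.00 with 0 higher and 1, Eif2s1, lower, and the 13 genes of RNA polymerase I, which makes ribosomal RNA, a median of -0.04 with 1, Taf1d, higher and 0 lower.

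Of 27 genes known to regulate ribosomal protein mRNAs, such as mTOR pathway kinases and MYC partners, 24 were measured over all cells, and 8 were higher and 1, Mxd1, lower (147 to 122 CPM). Within labels the ratio of Mxd1 ranged from 0.57 in LSC to 1.13 in TAC1. Among 13 measured p53 targets, 2 were higher and 1 lower over all cells. Btg2, an antiproliferative gene, was 1.63-fold higher (36.4 to 59.3 CPM). Cdkn1a, which encodes the cell cycle inhibitor p21, was 1.36-fold lower (218 to 161 CPM). Its level differed between labels, with 24.4 CPM in control Basal and 398 CPM in control Wing. Within labels Cdkn1a was between 1.17-fold lower in Wing and 1.36-fold lower in Basal, but 1.17-fold higher in Conj. Over all cells 16.8% of all genes were past the rule higher and 8.18% lower, so the counts of these lists stand beside those shares.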

How the data were processed

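Libraries were of the Chromium 3′ single-cell type (kit 3.1), per the labels' protocols. The submitters' processing notes name Cell Ranger 5.0.0, Seurat 4 and build mm10 without their roles. Filters on cells and any doublet removal: not given in the sources used here. The deposited matrix holds raw UMI counts of 17808 cells, and a deposited cell table gives group and cell type label. The fewest UMIs in a cell were 520 and the highest mitochondrial share was 29.3%.

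Counts were summed over the cells of each library and label and given as CPM of the summed total (scaled to 1000000), with exact Poisson intervals; ratios have exact conditional binomial intervals and shares Clopper-Pearson intervals, at 95% (scipy 1.17.1 and numpy 2.4.6 under Python 3.11.15). With 1 library per group no test was made. A gene was measured with at least 50 counts over both sums, and past the rule at 1.2-fold (stricter rule 1.5-fold) with intervals apart. For equal weight per cell and equal label weights, the intervals were not required to lie apart. The counting steps were checked on simulated data. Scrublet (scanpy 1.11.5) marked 0 cells in either library, so the top 8% of scores (769 and 706 cells) were left out as an alternative. Other alternatives were another scaling, a denominator without these genes, equal weight per cell, thinning to 5000 UMIs (486 and 264 shallower cells left out), leaving out 36 and 26 cells above 10% mitochondrial counts, equal label weights and other count minimums.

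Genes named by rule were the 5 highest and 5 lowest members, the 5 largest ratios each way over all cells, members past 1.5-fold, paralogs with their partners and the 3 most and least lower in Squam, and up to 2 per direction in other lists; others named were chosen after their values were seen. Some genes that the rule or a count covers are not reported here. The members and lists were chosen with earlier results of these data known. Copies of 3′ ends were counted as shared 31-base words in GENCODE transcripts of GRCm38.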

Additional observations from a re-analysis of the deposited data

Results flagged for a closer look

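The difference between the diabetic and the control library pointed one way in some labels and the other way in Squam. The median log2 ratio of the ribosomal protein genes in LSC exceeded that in Squam by 0.3, and so did that in Wing, by 0.3. The Squam median minus the Conj median was -0.26. These differences between labels were not tested, since each group is 1 library.

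Rpl36a-ps1, a pseudogene left out of the members, had counts in both libraries, 13.8 CPM in the control and 16.5 CPM in the diabetic library. All 31-base words at the 3′ end of Rpl36a also occur in another gene, so counts of such copies and of their parent genes may be split.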

How the results depend on the processing

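The fold rule of 1.5 left 0 members higher over all cells and in LSC, Basal, TAC1, TAC2 and Conj, 0 lower in TAC2 and Squam, and 1 higher in Wing. With median-of-ratios scaling the diabetic over control median log2 was 0.05 over all cells (9 members higher), -0.02 in TAC1 (3 higher, 1 lower), -0.02 in TAC2, 0.07 in Wing (1 lower) and -0.08 in Squam (2 higher, 4 lower). The medians over Basal in the control and diabetic libraries were then -0.48 and -0.38 in Wing, -1.08 and -1.16 in Squam, and -0.89 and -0.81 in Conj. Without these genes in the denominator the median was 0.16 over all cells and 0.19 in LSC (19 higher), and over Basal -0.98 and -0.80 in Wing, -2.56 and -2.75 in Squam, and -1.69 and -1.58 in Conj.

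With equal weight for every cell the shares of UMIs were 22.6% and 23.8%. Counts of members with equal weight per cell and with the same label weights did not require intervals apart. They are therefore not directly comparable with the main counts. The diabetic over control median was 0.06 over all cells (10 higher), 0.08 in Wing (1 lower), -0.12 in Squam (6 lower) and 0.04 in Conj (3 higher), with 2 lower in Basal, 1 in TAC1 and 2 in TAC2; the control medians over Basal were -0.66 in Wing and -2.21 in Squam. Thinned to 5000 UMIs, the shares were 22.8% and 23.9% and the medians 0.05 over all cells (10 higher), 0.08 in Wing (1 lower) and 0.04 in Conj, with 1 lower in Basal and 1 in TAC1, and -2.24 for control Squam over Basal. With the same label weights the median over all cells was 0.03 (9 higher). Without the likely doublets the shares were 20.7% and 22.5%; 4 members were higher in TAC2, and the median was -0.13 in Squam (10 lower) and 0.05 in Conj (3 higher). The medians over Basal were then -0.64 in diabetic Wing, -2.38 and -2.50 in Squam, and -1.39 and -1.33 in Conj. Without cells above 10% mitochondrial counts the control share was 21.0%. The cause of these shifts was not tested.

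The direction in LSC, Wing, Conj and Squam and over all cells held in every alternative run; the Basal, TAC1 and TAC2 medians lay near 0. No paired analysis was possible because each group is 1 library and the labels carry no replicate numbers, and no replicate was left out.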

Other observations

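The diabetic over control ratio was also set beside the level of the members. When the 81 members of at least 100 CPM were split into 27 each by their mean level in both libraries, the median log2 ratio over all cells was 0.22 in the lowest, 0.13 in the middle and 0.10 in the highest group. In Wing the medians were 0.25, 0.13 and 0.10, and in Squam -0.05, -0.17 and -0.21. In Basal they were 0.03, -0.02 and -0.02. The lowest group nevertheless held both ends of the order, Rpl12 at 0.55 and Rpl22l1 at -0.17 over all cells. The split was chosen after the values were seen. Over all 83 measured members, the log2 ratio over all cells correlated weakly with the log2 control level. The Pearson r was 0.14 and the Spearman rho -0.21, so the 2 measures differed in sign. In Basal they were 0.37 and -0.12. The 83 include Rpl39l, at 0.881 CPM in control cells, far below the next measured member, Rpl7l1, at 57.0 CPM. Its log2 ratio was -0.14 over all cells and -0.60 in Basal, on few counts. A Pearson r can depend on such a single point, and its part in these values was not tested.

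Copies of a member's 3′ end elsewhere in the transcriptome were counted for all members. In the last 200 bases of Rpl12, Rpl13a, Rps25 and Rpl5, 0% of the 31-base words occurred in another gene, whereas for Rps15 it was 77.1%. A pseudogene counted as a copy when it held at least as many of a member's words as it lacked. The median log2 ratio over all cells was 0.11 in 54 members with no such pseudogene copy, 0.13 in 20 members with 1 to 4 copies and 0.26 in 9 members with 5 or more. Members with no pseudogene copy can still share words with other genes, such as Rpl36a and Rpl9, at 100% of their words, and Rps18, at 79.4%. The ranges overlapped, from -0.17 to 0.55 with no copy and from 0.02 to 0.36 with 5 or more. In Basal the medians were -0.02, -0.01 and 0.02. Over 83 members the correlation with the number of copies was weak (Pearson r 0.18, Spearman rho 0.13). The part of copies in the ratios was not tested.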
